A study of Mus musculus with 3 samples.

Results

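The serpins, the largest family of protease inhibitors in blood plasma, were followed in mouse liver as the genes whose symbol starts with Serpin. A member had to be read by a probe set, a group of short probes on the array, for which the platform annotation names exactly 1 gene, and each gene was read from the probe set whose log2 signal had the highest mean over the arrays. These were 40 genes of 18193 genes with such a probe set. Of the 40, 21 were kept for ratios because the mean log2 signal lay in the upper 50% of all probe sets other than controls, and 11341 genes of the array were kept in the same way.

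Male C57BL/6J mice were fed a control diet (Control, D12450B) in which fat gave 10% of the energy, a diet high in fat (HF, D12492) in which it gave 60%, or the HF diet with 0.023% by weight of sodium ferrous citrate, an iron salt (HF+SFC). Feeding began at 6 weeks of age and lasted 15 weeks, which ends at 21 weeks of age, whereas the labels give 21 months, so age was not used. All 3 groups were of the same strain and sex with no genetic change named, and the livers of a group were read as 1 mixture on 1 Affymetrix array. There were therefore 3 arrays, 1 per group, with no replicates, and no test, p-value or replicate error can be given for any value below.

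In place of a replicate error, the disagreement between different probe sets of the same gene is given. Over 5020 genes with at least 2 kept probe sets, the SD of the log2 ratio of HF over Control between probe sets was 0.35, and in 4 classes of kept genes by signal it ran from 0.28 in the class of highest signal to 0.55 in that of the lowest. For HF+SFC over HF the SD was 0.33, from 0.24 to 0.53. This SD covers probe behaviour only and leaves out the spread between mice and between arrays. A difference of at least 1.5-fold, or 0.58 on the log2 scale, is called higher or lower, which is the fold used by the study.

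A serpin inhibits a protease by offering a flexible loop that the protease cuts, after which inhibitor and enzyme stay bound to each other and are cleared. Families are lettered as clades: clade A holds the antitrypsins and their relatives, mostly secreted by hepatocytes, clade B holds intracellular inhibitors that protect cells from their own granule proteases, and the other clades hold inhibitors of clotting, fibrinolysis and complement. Some serpins inhibit nothing and serve as hormone carriers or as chaperones.

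The letter after Serpin divided the 40 genes into 14 of clade A, 18 of clade B and 8 of clades C to I. The numbers kept were 9, 6 and 6. All 40 were matched to a RefSeq gene of mouse assembly GRCm38.p6 by Entrez identifier, and that table holds 69 genes with a Serpin symbol, of which the others were not analysed here. The 19 genes that were not kept had signals between 1.63 and 65.4 on every array, and no fold is given for them. They included 12 of the 18 clade B genes, such as Serpinb2, Serpinb5 and Serpinb7, the clade A genes Serpina1f, Serpina3a, Serpina3i, Serpina5 and Serpina9, and both genes of clade I, Serpini1 and Serpini2.

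The hepatocyte identity of the tissue was visible in all 3 pools: 10 of 10 hepatocyte markers were kept, and their summed signal was 401980 for Control, 372904 for HF and 376252 for HF+SFC. None of the 10 was at least 1.5-fold higher in HF than in Control and 1, Hnf4a, was lower. All 10 were below 0 in HF over Control, with a median log2 ratio of -0.09. Array medians were 81.7, 87.3 and 80.4, and each array had been scaled to the same trimmed mean of 500.004. The mixtures held other liver cells as well, and in bulk tissue fewer cells of a type and less RNA per cell cannot be told apart.

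Between HF and Control, 4 of the 21 kept serpins (19.0%) were at least 1.5-fold higher in HF, where the share over all kept genes was 11.3%, and 3 (14.3%) were at least 1.5-fold lower, where the share over all kept genes was 5.84%. The higher genes were Serpina3n, Serpina6, Serpina7 and Serpinb8. The lower genes were Serpina4-ps1, Serpina11 and, by 1 of its 2 probe sets, Serpina12. With so few members these shares are described and not tested. The median log2 ratio of the 21 was -0.09, against 0.03 over all kept genes, so the family as a whole stood near the rest of the array while single members lay far from it.

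Between HF+SFC and HF, 1 of the 21 serpins, Serpinb1a, was at least 1.5-fold higher, against a share of 2.88% over all kept genes, and 1, Serpinb6e, was at least 1.5-fold lower, against 5.33%. Each share rests on 1 gene, which is 4.76% of the family. The median was 0.03, and -0.01 over all kept genes. The HF array enters both comparisons, so the values of each gene are given side by side below.

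**Figure D1:**
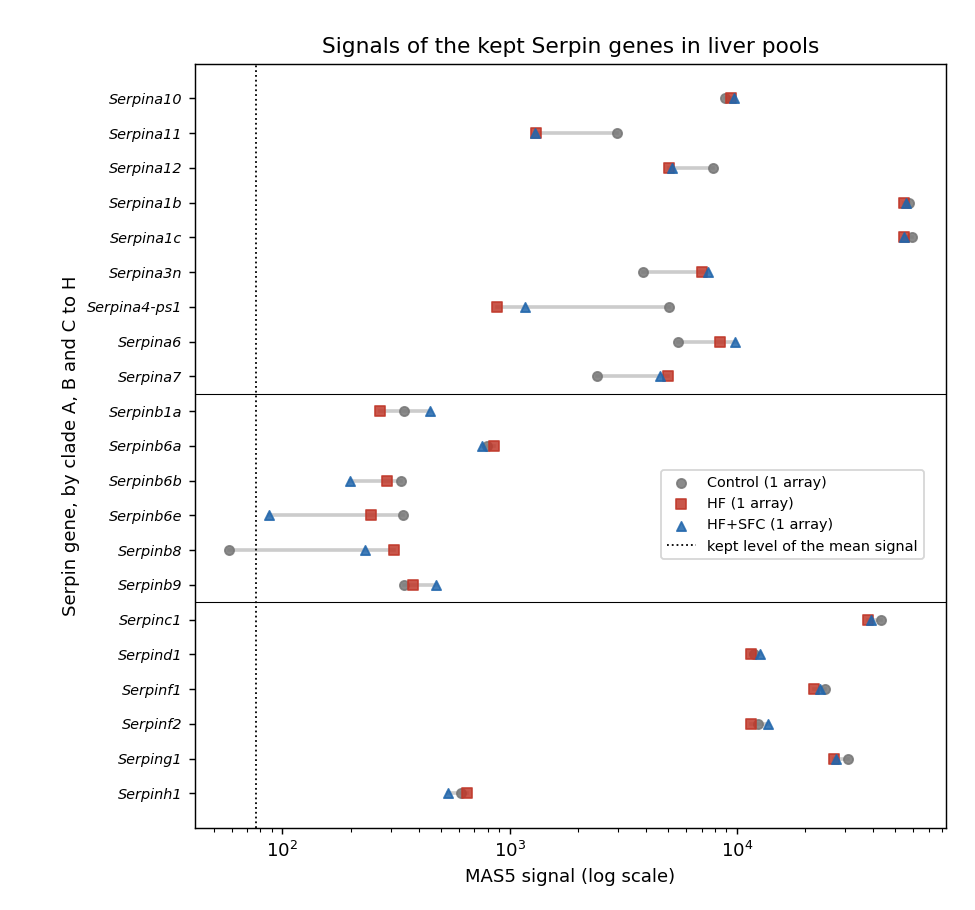
Signals of the 21 kept Serpin genes. The horizontal axis is the MAS5 signal on a log scale, each point is 1 array (grey circle Control, red square HF, blue triangle HF+SFC), grey lines span the 3 arrays, and the dotted line at 76.9 is the level that a mean signal had to reach. Serpina4-ps1, Serpina11, Serpinb8 and Serpinb6e have the widest lines, and the positions of different genes on the axis are not comparable because each probe set responds differently.

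The deepest difference of the family was in Serpina4-ps1, which RefSeq lists as a transcribed pseudogene and which is named after kallistatin, an inhibitor of tissue kallikrein. Its signal was 5058 on the Control array, 884 on that of HF and 1165 on that of HF+SFC. Both high-fat pools were far under the Control pool, and the pool with iron stood slightly above the one without. HF was 5.72-fold lower than Control, a log2 ratio of -2.52, the 10th lowest of 11341 genes. The 3 probe sets of the gene gave -2.95 to -2.43, a range on 1 side of 0 and far outside the SD of 0.28 between probe sets of genes of this signal. For HF+SFC over HF the log2 ratio was 0.40, with 0.32 to 0.75 over the same 3 probe sets, so that it was inside 1.5-fold for the probe set used and for 1 other, and beyond it for 1. The probe set used carries a suffix, _x_at, by which the manufacturer marks probes that may also bind related transcripts. The probe set at 0.32 carries a different suffix, _a_at, and the one at 0.75 carries neither. HF+SFC was still at -2.12 against Control.

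Serpina11, a secreted clade A serpin, gave a signal of 2968 in the Control pool, 1308 in HF and 1301 in HF+SFC. The values in the high-fat pools were nearly equal and both were under the Control value. HF was 2.27-fold lower than Control (log2 ratio -1.18), and HF+SFC over HF was at -0.01. Only 1 probe set reads this gene.

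Serpina12, also called vaspin, a secreted inhibitor of kallikrein 7 known from adipose tissue, gave a signal of 7880 for Control, 5021 for HF and 5190 for HF+SFC. The high-fat pools were again close to each other and under Control. HF was 1.57-fold lower (log2 ratio -0.65), just beyond the threshold, and HF+SFC over HF was at 0.05. A second, much dimmer kept probe set of the gene read 153 on the Control array, 193 on that of HF and 119 on that of HF+SFC. It gave 0.34 in HF over Control, where the brighter probe set was below 0, and -0.70 in HF+SFC over HF, where the brighter one was above 0. With the median over both probe sets the log2 ratio of HF over Control was -0.16, inside 1.5-fold, so the direction of Serpina12 depends on the probe set.

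The promoters of the lower genes are shown because the genes are neighbours and had lower signals in the same pools, for Serpina12 by its brighter probe set only. Each line holds the 250 bases before the most upstream RefSeq start of the gene in assembly GRCm38.p6, on the strand of the gene and from 5′ to 3′. Serpina11 lies on the minus strand at chr12:103989958-103990207 and Serpina12 on the minus strand at chr12:104044444-104044693. Capitals mark matches, on either strand, to any of 5 short motifs of liver factors: GTTAAT (an HNF1 half-site), TGTTTAC (FOXA), TTCNNNGAA (STAT), TTGCNNAA (C/EBP) and AGGTCA (a nuclear receptor half-site). No window was at hand for Serpina4-ps1.
Serpina11: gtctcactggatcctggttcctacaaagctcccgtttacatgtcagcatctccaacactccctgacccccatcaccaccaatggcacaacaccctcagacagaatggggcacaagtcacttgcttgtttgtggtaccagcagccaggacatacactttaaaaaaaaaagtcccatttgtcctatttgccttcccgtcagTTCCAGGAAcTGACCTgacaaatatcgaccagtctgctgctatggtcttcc
Serpina12: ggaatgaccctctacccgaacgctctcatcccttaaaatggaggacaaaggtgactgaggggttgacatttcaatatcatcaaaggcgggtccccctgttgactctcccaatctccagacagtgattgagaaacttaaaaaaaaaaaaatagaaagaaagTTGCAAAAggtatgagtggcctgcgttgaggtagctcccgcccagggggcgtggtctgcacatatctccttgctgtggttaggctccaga
The Serpina11 window held a STAT match at -51 to -43 and a nuclear receptor half-site at -41 to -36 from the start. The Serpina12 window held 1 C/EBP match, at -90 to -83. The windows therefore shared no match among these motifs. None of the matches in either window overlapped another. A match is a run of letters and not a measured binding site.

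On chromosome 12, RefSeq lists 28 Serpina genes in 1 cluster, of which 8 were kept, 5 were too dim and 15 had no probe set of 1 gene. In the order along the chromosome, Serpina11, the dim Serpina9, Serpina12 and Serpina4-ps1 follow each other as the 10th to the 13th Serpina gene, with no other Serpina gene between them. These 3 measured neighbours were the only serpins called lower in HF, Serpina12 only by the brighter of its 2 probe sets. The nearest kept gene on 1 side, Serpina1c, was at -0.10 for HF over Control, and on the other side the next kept gene was the last of the cluster, Serpina3n, at 0.87. At the other end of the cluster Serpina10 was at 0.09 and Serpina6 at 0.62.

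**Figure D2:**
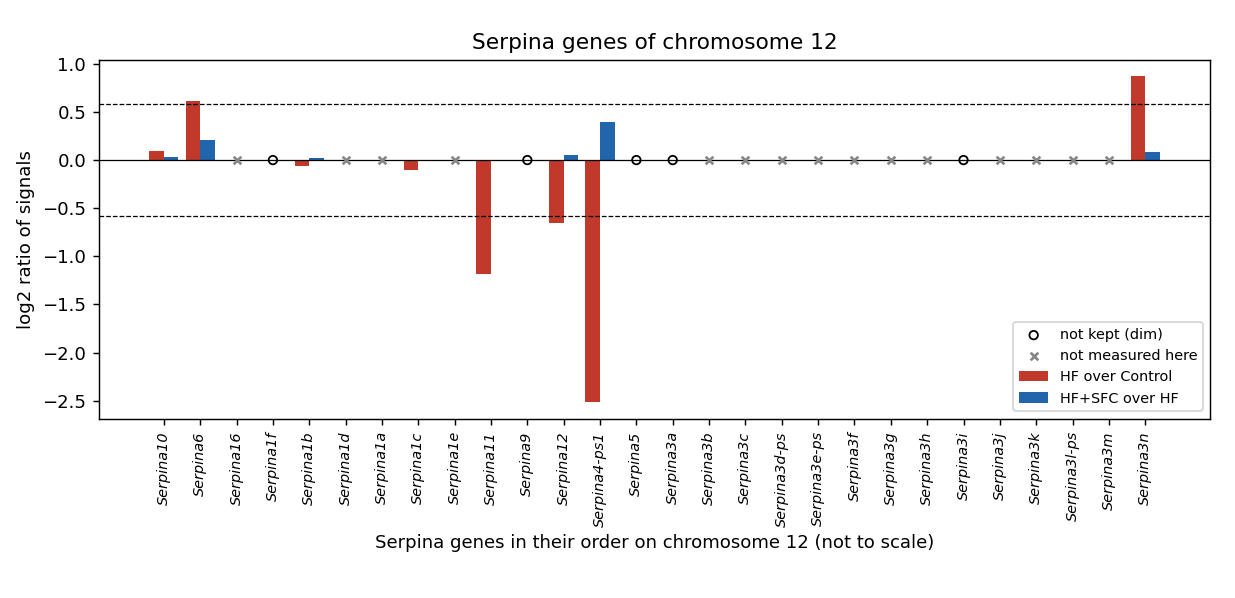
Log2 ratios of the Serpina genes of chromosome 12 in their RefSeq order, not to scale. Red bars are HF over Control and blue bars HF+SFC over HF (1 array per group, no error bars). Open circles are genes too dim for a ratio, crosses are genes without a probe set of 1 gene, and dashed lines mark 1.5-fold. The red bars of Serpina11, Serpina12 and Serpina4-ps1 point down at -1.18, -0.65 and -2.52 while those of Serpina6 and Serpina3n point up. The bar of Serpina12 is that of its brighter probe set, and the dimmer one was at 0.34.

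Among the higher genes, Serpina7 encodes thyroxine-binding globulin, a plasma carrier of thyroid hormone that inhibits no protease. It is the 1 member on chromosome X. Its signal was 2423 in the Control pool, 5003 in HF and 4613 in HF+SFC. Both high-fat pools were above Control by about the same amount. HF was 2.07-fold higher than Control (log2 ratio 1.05), and HF+SFC over HF was at -0.12.

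Serpina6 encodes corticosteroid-binding globulin, the plasma carrier of glucocorticoids. Its signal was 5518 for Control, 8457 for HF and 9801 for HF+SFC, so that the pools rank in that order. HF was 1.53-fold higher than Control (log2 ratio 0.62), only just beyond the threshold and read by 1 probe set. HF+SFC over HF was at 0.21, within the SD of 0.24 between probe sets of this signal, and HF+SFC over Control was at 0.83. Both hormone-carrying serpins were thus higher in the high-fat pools. Of 8 other kept carriers of hormones, vitamins and growth factors in plasma, none was at least 1.5-fold higher in HF and 2 were lower, the insulin-like growth factor binding proteins Igfbp1 at -2.13 and Igfbp2 at -1.59.

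Serpina3n is an acute phase protein, a mouse relative of antichymotrypsin that inhibits granzyme B and other leukocyte proteases. Its signal was 3852 on the Control array, 7052 on that of HF and 7455 on that of HF+SFC. The high-fat pools lay together above Control. HF was 1.83-fold higher (log2 ratio 0.87), and HF+SFC over HF was at 0.08. Of 28 other acute phase proteins that were kept, 9 lay at least 1.5-fold above Control in HF and 1 lay below, with a median of -0.03. The highest were Lcn2, which binds bacterial iron carriers, at 3.61, serum amyloid Saa2 at 3.55, and the metallothioneins Mt1 and Mt2 at 2.44 and 2.38. The lower gene was Hamp, the iron hormone hepcidin, at -1.15. None of the 28 was beyond 1.5-fold between HF+SFC and HF.

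IL-6 and STAT3 signalling, the pathway known to drive acute phase genes, had 14 kept genes. None was at least 1.5-fold higher in HF and 2 were lower, the receptor Lifr at -1.28 and the feedback inhibitor Socs3 at -1.14. Of the 14, 5 were above 0 and 9 below, and the IL-6 receptor Il6ra was at 0.57, just inside 1.5-fold. In HF+SFC over Control 1 was higher, Il6ra at 0.74, and 3 were lower. Over all kept genes, 11.3% were higher and 5.84% lower in HF over Control. Of 9 hepatocyte transcription factors, none was higher and 5 were lower, Onecut1 at -1.29, Foxa1 at -1.19, Foxa2 at -0.89, Foxa3 at -0.62 and Hnf4a at -0.61. The median of these factors was -0.61 in HF over Control and 0.25 in HF+SFC over HF. Whether they bear on any serpin was not tested.

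The promoters of higher genes are shown beside that of Serpina1c, whose signal was nearly level. The windows are Serpina7 at chrX:139085237-139085486 on the minus strand, Serpina3n at chr12:104406458-104406707 on the plus strand, Serpinb8 at chr1:107589756-107590005 on the plus strand and Serpina1c at chr12:103904951-103905200 on the minus strand. Build, orientation and capitals are as above, and Serpina6 had no window at hand.
Serpina7: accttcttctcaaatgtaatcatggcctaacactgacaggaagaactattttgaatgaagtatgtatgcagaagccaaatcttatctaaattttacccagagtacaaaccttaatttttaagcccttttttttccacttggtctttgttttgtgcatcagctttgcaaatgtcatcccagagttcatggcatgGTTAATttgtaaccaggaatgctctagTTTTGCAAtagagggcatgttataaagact
Serpina3n: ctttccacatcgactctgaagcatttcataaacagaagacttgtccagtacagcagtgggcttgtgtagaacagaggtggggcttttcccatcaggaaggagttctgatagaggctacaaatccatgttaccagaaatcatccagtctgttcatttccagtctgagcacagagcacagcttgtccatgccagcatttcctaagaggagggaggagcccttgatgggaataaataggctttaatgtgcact
Serpinb8: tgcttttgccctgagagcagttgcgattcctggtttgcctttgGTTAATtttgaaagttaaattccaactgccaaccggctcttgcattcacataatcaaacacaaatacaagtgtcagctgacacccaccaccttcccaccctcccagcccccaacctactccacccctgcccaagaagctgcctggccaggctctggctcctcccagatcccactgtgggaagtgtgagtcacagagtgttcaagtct
Serpina1c: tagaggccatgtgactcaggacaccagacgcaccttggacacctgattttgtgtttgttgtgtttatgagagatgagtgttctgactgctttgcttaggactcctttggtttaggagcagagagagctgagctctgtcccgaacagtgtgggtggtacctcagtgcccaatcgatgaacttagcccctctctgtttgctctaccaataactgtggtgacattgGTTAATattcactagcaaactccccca
Serpina7 held an HNF1 half-site at -57 to -52 and a C/EBP match at -30 to -23, and Serpina3n held none of the 5 motifs. Serpinb8 held an HNF1 half-site far from the start, and in Serpina1c the same letters stood at -27 to -22. Over the 16 kept serpins with a window, the HNF1 half-site was found in 4, against 6.52% of all 27025 windows of this length. The STAT letters were found in 2 (7.18% of all windows), the C/EBP letters in 3 (9.55%), AGGTCA in 4 (13.8%) and the FOXA letters in 0 (3.09%). Genes with the HNF1 half-site included the level Serpina1b and Serpina1c as well as the higher Serpina7 and Serpinb8, and the antitrypsin genes are near-identical copies.

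In clade B, Serpinb8, an intracellular serpin known to inhibit furin, gave a signal of 58.3 in the Control pool, 310 in HF and 230 in HF+SFC. The Control value lay under the kept level of 76.9, the only such value among the 21 genes, so the gene was kept through its high-fat pools and its place among the called genes partly follows from that. The deposited signals give a ratio of 5.32, or 2.41 on the log2 scale, whose size is uncertain because the Control signal cannot be told from none. With signals under the array median raised to it, the log2 ratio was 1.93. A second probe set, kept in the same way, read 42.3, 225 and 183 and gave 2.41 as deposited, and the SD between probe sets of genes of this signal was 0.55. HF+SFC over HF was at -0.43 with the first and -0.30 with the second probe set.

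Serpinb6e, one of the Serpinb6 genes of chromosome 13, gave a signal of 339 for Control, 245 for HF and 87.3 for HF+SFC. The value in the pool with iron stood apart from the other values. HF+SFC was 2.80-fold lower than HF (log2 ratio -1.49), the 52nd lowest of 11341 genes, and HF over Control was at -0.47. The HF+SFC signal of 87.3 lay near the kept level of 76.9, so the size of this ratio is uncertain. The single probe set carries the suffix for probes that may bind related transcripts, and the SD between probe sets in this range was 0.53. Its relative Serpinb6b read 332 on the Control array, 289 on that of HF and 199 on that of HF+SFC, the same order of the pools. Its log2 ratio was -0.54 for HF+SFC over HF, inside 1.5-fold, and -0.73 for HF+SFC over Control. Serpinb6a, which inhibits cathepsin G, was at 0.09 in HF over Control and at -0.18 in HF+SFC over HF.

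Serpinb1a, which inhibits neutrophil elastase, cathepsin G and proteinase 3, gave a signal of 344 in the Control pool, 268 in HF and 447 in HF+SFC. The HF pool was the lowest and the pool with iron the highest. HF+SFC was 1.67-fold higher than HF (log2 ratio 0.74), and HF over Control was at -0.36. A second probe set of the gene, too dim to be kept, gave 0.06 for HF+SFC over HF, so the difference was not seen in both. For HF over Control it gave 0.36, the opposite sign. Serpinb9, the inhibitor by which lymphocytes and other cells resist granzyme B, was at 0.13 for HF over Control with 1 probe set and at 0.91 with another, and at 0.34 and -0.67 for HF+SFC over HF.

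Marker genes of other liver cells differed between the same pools. The 15 of 16 kept markers of macrophages and Kupffer cells were all above 0 in HF over Control and all below 0 in HF+SFC over HF, with medians of 0.36 and -0.38 and a summed signal over the whole list of 22968 for Control, 30337 for HF and 22873 for HF+SFC. Of 12 lymphocyte markers 11 were on the array and 3 were kept, with a summed signal of 1355, 2533 and 1405. The 3 did not move together. In HF over Control, Ccl5 was at 1.37, Ptprc at 1.01 and Cd8a at -0.18. In HF+SFC over HF, Ccl5 was at -2.37, Ptprc at -0.85 and Cd8a at 0.44. Of 10 neutrophil markers 9 were on the array and 4 were kept, with a summed signal of 606, 812 and 809. Of those 4, Csf3r at 0.71 and S100a9 at 0.86 were at least 1.5-fold higher in HF+SFC than in HF. The others went the other way, S100a8 at -0.40 and Ngp at -0.33. S100a9 read 80.5 for Control, 75.5 for HF and 137 for HF+SFC. Its HF value lay under the kept level of 76.9, so the size of its ratio is uncertain. No marker gave a signal of 0. The part of these cells in the clade B values was not tested.

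**Figure D3:**
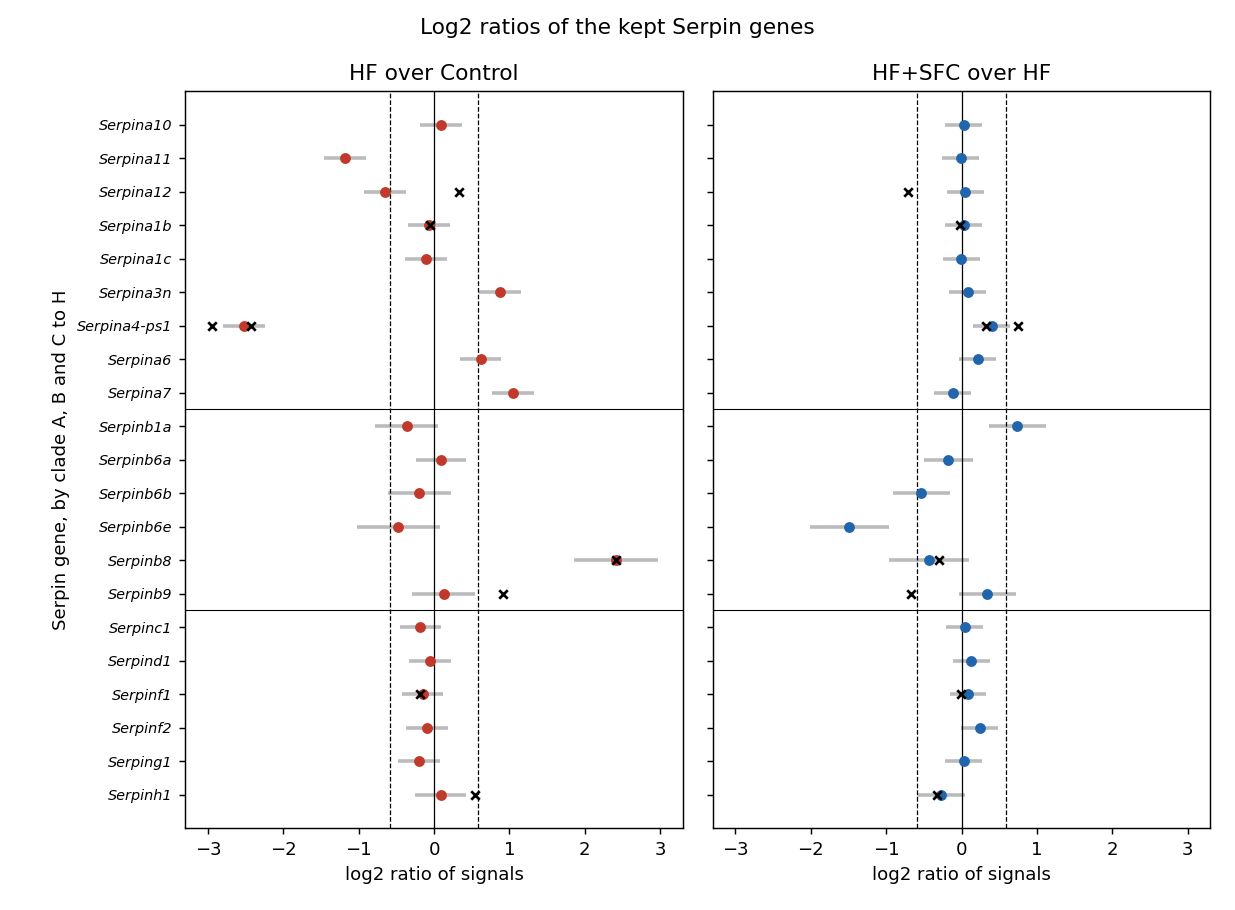
Log2 ratios of the 21 kept Serpin genes with HF over Control on the left in red and HF+SFC over HF on the right in blue, 1 array per group. Grey bars are plus or minus 1 SD between probe sets of genes in the same signal class, crosses are other kept probe sets of the gene, dashed lines mark 1.5-fold and solid lines divide clades A, B and C to H; on the right all clade A genes lie between -0.12 and 0.40 by their first probe set, and the crosses of Serpina12 and Serpinb9 fall far from their points.

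Ratios near 0 were found for 8 secreted serpins: the inhibitors of clotting, fibrinolysis and complement, the antitrypsins, and Serpinf1, which inhibits no protease. This set was chosen with earlier results known and leaves out the secreted Serpina3n, Serpina6, Serpina7, Serpina11 and Serpina12. Those left out were beyond 1.5-fold in HF over Control, Serpina12 by its brighter probe set only. Ratios near 0 in that comparison therefore partly follow from the choice of the set. The log2 ratios of the 8 for HF over Control lay between -0.20 and 0.09, with 7 of 8 below 0. For HF+SFC over HF they lay between -0.00 and 0.24, with 7 of 8 above 0. These signs depended on the scaling: 4 of 8 were below 0 in HF over Control after quantile normalization and after lowess, and in HF+SFC over HF 5 and 3 of 8 were above 0. Each of these ratios was inside the SD of 0.28 or 0.24 between probe sets of genes of high signal. A difference of this size between pools of mice could not be resolved with 1 array per group.

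Serpinc1, or antithrombin, which inactivates thrombin and factor Xa, read 43041 on the Control array, 37990 on that of HF and 39083 on that of HF+SFC. Serping1, the C1 inhibitor that also restrains plasma kallikrein, read 30873, 26877 and 27469. Both were lowest in HF by a small margin, with log2 ratios against Control of -0.18 and -0.20. Serpind1, heparin cofactor II, was at -0.05, and Serpina10, which inhibits factor Xa together with protein Z, was at 0.09.

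Serpinf2, the plasmin inhibitor, read 12382 in the Control pool, 11611 in HF and 13704 in HF+SFC. Its log2 ratio of 0.24 for HF+SFC over HF was the highest of these 8. Serpinf1, which encodes pigment epithelium-derived factor, was at -0.15 and 0.09. The antitrypsins Serpina1b and Serpina1c, the chief guards against neutrophil elastase, were at -0.07 and -0.10 against Control in HF and at 0.03 and -0.00 between HF+SFC and HF. Antitrypsin genes of the mouse are near-identical copies and both probe sets of Serpina1b carry the suffix for related transcripts, so these copies cannot be told apart. Their signals lay near the top of the arrays, where between 10 and 19 probe sets were brighter and the highest signals were 76090 in the Control pool, 69903 in HF and 71126 in HF+SFC. Whether signals in that range still follow the amount of RNA was not tested. Agt, angiotensinogen, a serpin by descent whose symbol the rule leaves out, read 17627, 17687 and 18374, a log2 ratio of 0.00 for HF over Control.

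The proteases that these inhibitors meet were taken as further lists. Of 9 coagulation proteases none was beyond 1.5-fold between HF and Control, with a median of -0.14 and a range of -0.33 to 0.52. Between HF+SFC and HF none was beyond 1.5-fold, with a median of 0.06, and all 9 were above 0. Of the 2836 kept genes in the highest signal class, 1721 were above 0 in this comparison too. Whether the signs of the 9 hold under other scalings was not tested. F11, clotting factor XI, read 1936 for Control, 2778 for HF and 3113 for HF+SFC, and its log2 ratio of HF+SFC over Control of 0.69 was the only one of the list beyond 1.5-fold in any comparison. Of 8 kept complement proteases, none was beyond 1.5-fold in HF over Control (median -0.16) or in HF+SFC over HF (median -0.02), and C1ra, a target of the C1 inhibitor, had the ratio of greatest size, -0.53 for HF over Control.

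Of 3 fibrinolysis proteases, plasminogen (Plg) was at -0.20 for HF over Control and the plasminogen activator Plat was at 0.64, with signals of 65.1 on the Control array, 101 on that of HF and 98.8 on that of HF+SFC, so that its Control value lay under the kept level. Of 13 leukocyte and lysosomal proteases 4 were kept, the cathepsins Ctsb, Ctsc, Ctsl and Ctss. They lay between -0.06 and 0.13 for HF over Control. Neutrophil elastase, cathepsin G, proteinase 3 and granzyme B, named above as targets of serpins, were not among the 4. Of 7 kept proteases of the hepatocyte surface and secretory route, Prss8 was at 1.98 and Tmprss2 at 0.65 for HF over Control, and Klk1, a tissue kallikrein, was at -0.70. Prss8 read 37.9, 150 and 132, so its Control value too was under the kept level. Of 15 kept partners and receptors of serpins, 12 were below 0 in HF over Control, with a median of -0.22, and 1, the plasminogen receptor Plgrkt, was at least 1.5-fold higher, at 1.04.

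Serpinh1 encodes HSP47, a chaperone of the endoplasmic reticulum that binds folding collagen and inhibits no protease. With the probe set used it read 610 in the Control pool, 648 in HF and 536 in HF+SFC, with HF the highest and HF+SFC the lowest by a small margin. The other kept probe set read 343, 501 and 399, with HF the highest and Control the lowest. The log2 ratio of Serpinh1 was 0.09 for HF over Control with the first and 0.54 with the other, and -0.27 and -0.33 for HF+SFC over HF. Neither probe set passed 1.5-fold in these comparisons, and both gave the same signs there. For HF+SFC over Control they gave -0.18 and 0.22, so the order of those pools depends on the probe set.

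The collagens that this chaperone serves, with the enzymes that process them, differed more. Of 22 kept genes of this list, 9 were at least 1.5-fold higher in HF than in Control and 0 were lower, with a median of 0.45. Col3a1 was at 1.70, Col1a2 at 1.34 and Col5a2 at 1.09. Between HF+SFC and HF, 0 were higher and 5 were lower, with a median of -0.30, and Col1a2 was at -0.80 and Col3a1 at -0.76. All 12 stellate cell markers, of which Col1a1, Col1a2 and Col3a1 are also in the collagen list, were above 0 in HF over Control and below 0 in HF+SFC over HF, with a summed signal of 17563 for Control, 26573 for HF and 20185 for HF+SFC. The part of these cells in the Serpinh1 values was not tested.

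Folding of secreted proteins was covered by 20 kept genes of the endoplasmic reticulum. None was beyond 1.5-fold between HF and Control, with a median of -0.13 and 17 of 20 below 0. The chaperone Hspa5 was at -0.51. Between HF+SFC and HF none was beyond 1.5-fold either, with a median of 0.01. Of 12 kept genes of TGF-beta signalling and other regulators of serpin transcription, 2 were at least 1.5-fold higher in HF. These were the TGF-beta receptor Tgfbr2 at 0.87 and the nuclear receptor Ppard at 0.67, whose Control signal of 61.5 lay under the kept level.

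**Figure D4:**
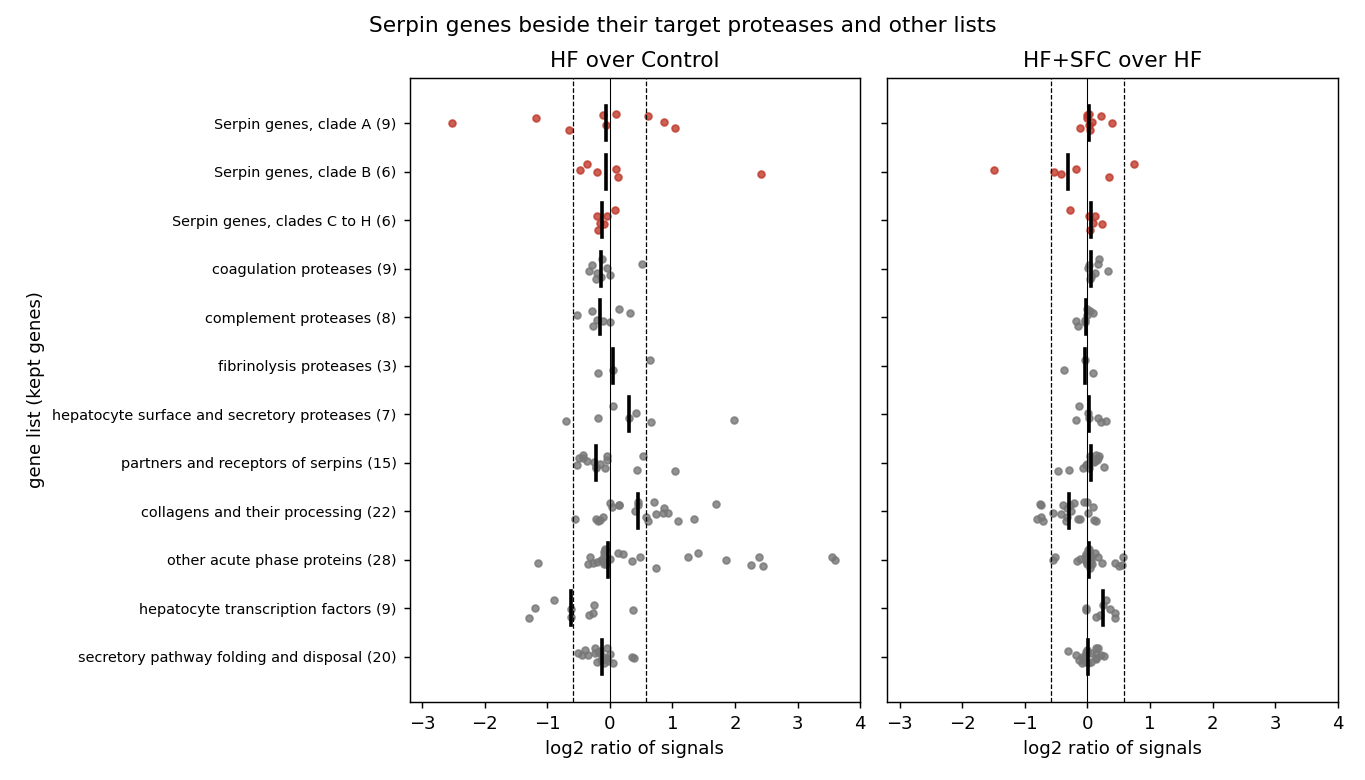
Log2 ratios of the kept genes of each list with HF over Control on the left and HF+SFC over HF on the right, 1 array per group. Each point is 1 gene, red for serpins and grey for other lists. Black bars are medians, numbers after the names are kept genes and dashed lines mark 1.5-fold. The coagulation and complement proteases lie between -0.53 and 0.52 on the left, and clade A spreads to both sides there. Of the 22 genes of the collagen list, 16 lie to the right of 0 on the left. On the right, 18 of the 22 lie to the left of 0.

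Genes of the daily clock also differed between the same pools. Of 16 kept clock genes, 6 lay at least 1.5-fold higher in HF than in Control and 4 were lower, with Per3 at 1.96, Dbp at 1.94 and Per2 at 1.68. Ciart was at 2.20, with a Control signal of 68.4 that lay under the kept level. Between HF+SFC and HF none of the 16 was beyond 1.5-fold. The hour at which livers were taken was not used here, and the part of the time of day in the serpin values was not tested.

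Against Control, the HF+SFC pool had 4 serpins at least 1.5-fold higher, where the share over all kept genes was 9.20%, and 5 at least 1.5-fold lower, where the share over all kept genes was 6.88%. This comparison shares an array with each of the others, so it is not a separate observation. The 4 higher genes were Serpina7 at 0.93, Serpina3n at 0.95, Serpina6 at 0.83 and Serpinb8 at 1.98. The 5 lower genes were Serpina4-ps1 at -2.12, Serpina11 at -1.19, Serpina12 at -0.60, Serpinb6b at -0.73 and Serpinb6e at -1.96. The 6 genes of clades C to H stayed between -0.18 and 0.15 by the probe set used, the lower end being Serpinh1, whose other probe set was at 0.22.

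Over all kept genes, 17.1% were beyond 1.5-fold in either direction in HF over Control and 8.22% in HF+SFC over HF. In clade A, 6 of 9 genes were beyond 1.5-fold in HF over Control, 3 each way, and none in HF+SFC over HF, where the range was -0.12 to 0.40. In clade B, 1 of 6 (16.7%) was beyond 1.5-fold in HF over Control, a share near that background, and 2 were in HF+SFC over HF. In clades C to H, none of 6 was beyond 1.5-fold in any of the 3 comparisons. Such counts vary with signal. Among the 2836 kept genes in the highest of the 4 signal classes, 4.76% were higher and 4.37% lower in HF over Control, and of the 14 serpins in that class 3 were higher and 3 lower. In HF+SFC over HF, 0.353% of those genes were beyond 1.5-fold in each direction, and 0 of the 14 serpins were.

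**Figure D5:**
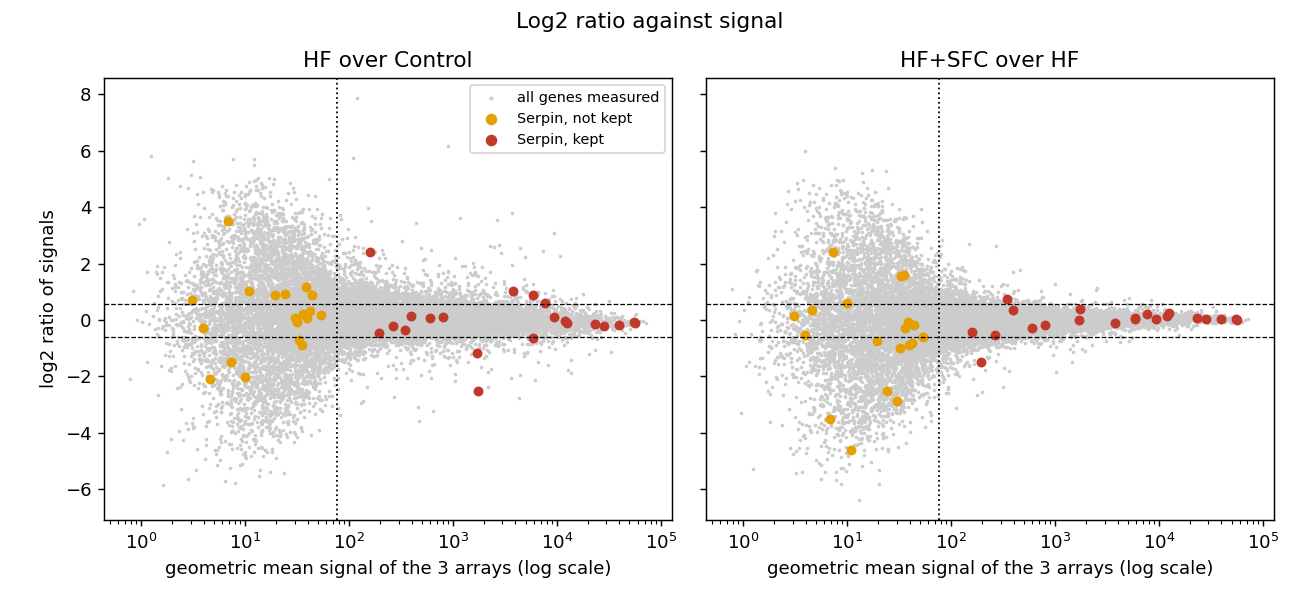
Log2 ratio against the geometric mean signal of the 3 arrays (log scale) with HF over Control on the left and HF+SFC over HF on the right. Grey points are all 18193 genes with a probe set of 1 gene, red points the 21 kept serpins and orange points the 19 serpins that were not kept, the dotted line is the kept level and dashed lines mark 1.5-fold; the grey cloud widens to the left of the dotted line, where the orange points spread to both sides of 0.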

How the data were processed

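Liver mixtures of 3 groups were read on Affymetrix mouse expression arrays, 1 array per group. The deposited values are intensities, MAS5 signals on a linear scale per the labels, which the authors had scaled to 1 target (trimmed mean 500.004, 2% at each end). No MAS5 version was named, and no detection calls were used, so that a dim signal cannot be told from none. Ratios of dim MAS5 signals are imprecise. With 3 arrays, 1 per group, their number limits the precision.

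Of 45037 probe sets other than 64 controls, 34945 named 1 gene, 932 several and 9160 none in the platform annotation. Of 56 Serpin probe sets, 29 were kept, and 3 that name several Serpin genes were not used. Log2 ratios were computed with numpy 2.4.6 and pandas 2.3.3, and the script was tested on simulated data. Kept serpins could be named, with all 3 signals where at least 1.5-fold different in any comparison, and up to 4 members of each other list per comparison with the log2 ratios of largest size. Hamp and Hnf4a, outside that rule, were named after their values were seen. The members and lists were chosen with earlier results of these data known. The alternatives were 3 scalings, 2 filters, a pseudocount of 16, a floor at the array median, the median over probe sets, leaving out probe sets of ambiguous suffix, and a 2-fold threshold. Promoters and gene order came from RefSeq tables of GRCm38.p6, which name a build that the array values do not carry. Some genes were not analysed here.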

Additional observations from a re-analysis of the deposited data

How the results depend on the processing

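No paired analysis was possible because each group has 1 array, and no replicate could be left out. The 18 calls of a serpin in a comparison were recomputed under up to 9 alternatives each, at 1.5-fold. Of 154 values, 154 kept their sign and 152 stayed beyond 1.5-fold. The exceptions were both of Serpina12, which the median over its probe sets put at -0.16 in HF over Control and at -0.48 in HF+SFC over Control. Part of the 154 values could not differ, because filters, the floor and the probe set median leave a bright gene with 1 probe set unchanged. Serpina11 in HF over Control, for instance, stayed at -1.18 under each of these, so the count of 152 overstates the stability.

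Counts of serpins depended on the filter. With no filter, all 40 gave 11 higher and 8 lower in HF over Control, 5 and 10 in HF+SFC over HF, and 10 and 13 in HF+SFC over Control. Over all 18193 genes the shares were then 20.3% and 15.1%, 12.8% and 16.6%, and 17.7% and 16.9%. With the upper 25% of signal, 16 serpins gave 0 and 0 in HF+SFC over HF and 3 lower in HF+SFC over Control. Without probe sets of ambiguous suffix, here _x_at, _s_at or _a_at, 2 of 16 were higher and 0 lower in HF+SFC over HF. Under that setting Serpina4-ps1 reached 0.75 and Serpinb6e dropped out. At 2-fold, 2 were higher in HF over Control, 0 in HF+SFC over HF, and 1 higher and 3 lower in HF+SFC over Control.

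Scaling moved the counts over all kept genes. In HF over Control they were 1282 higher and 662 lower as deposited, 1078 and 838 after quantile normalization, and 1105 and 788 after lowess. In HF+SFC over HF they were 327 and 605, 453 and 459, and 450 and 459. The serpin median of HF over Control was 0.02 under quantile and lowess, against -0.09.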
